A study of Mus musculus with 6 samples.

Results

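The sarcomere genes described here are 42 genes for the thin filament, the thick filament apart from its myosin heavy chains, the M-band and the Z-disc, among 18005 genes listed in the count matrix. They were chosen by name from knowledge of sarcomere proteins, with earlier results of these data known, and all 42 were found under their symbols. RNA was sequenced from hearts of 3 old and 3 young mice, in a series on enlargement of the heart with age. Every mouse was labelled wild type with no treatment, and the labels name the age class only. The tissue is labelled heart, with no chamber named. The mice are numbered 1 to 3 within each group, so that "old 1" and "young 1" below are different animals.

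The sarcomere is the contractile unit of heart muscle. Thin filaments of actin carry tropomyosin and the troponin complex, which uncovers the myosin binding sites when calcium rises. Thick filaments carry the myosin light chains and myosin binding protein C. The M-band ties thick filaments together at the centre, the Z-disc anchors thin filaments at the edge, and titin spans from one to the other. Many of these proteins have fetal, atrial, skeletal muscle and adult ventricular versions made from separate genes, and hearts under load often shift between them.

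Library totals ranged from 11295280 to 12514005 counts. Of 12893 genes tested over all 6 libraries with edgeR's quasi-likelihood test, 22% were called at a Benjamini-Hochberg adjusted p under 0.05, 11.4% higher and 10.6% lower in old hearts. For 39.9% of these genes every old library lay to one side of every young library. Levels in CPM are counts scaled to library size with TMM factors. Of 14 atrial markers, 11 were tested, 3 higher and 4 lower in old hearts. Sln was at 0 in all 3 old and in 1 young library, and Bmp10 at 0 in 2 old and all 3 young libraries, while Nppa, a natriuretic peptide of atrium and loaded ventricle, was at 69.23, 112.7 and 49.22 CPM in old and 408.0, 334.8 and 409.4 CPM in young hearts. Of 8 ventricular markers, 1 was higher and 5 were lower, and their sums overlapped at 22614 to 26174 CPM in old and 21813 to 26330 CPM in young hearts. Library young 3 held skeletal muscle transcripts. The 16 skeletal muscle markers summed to 13.46, 9.94 and 10.14 CPM in old hearts, against 10.38 and 8.61 CPM in young 1 and young 2 and 66.72 CPM in young 3. Of 14 other cardiomyocyte genes, 5 were higher, 0 lower and 9 not called. Their summed levels were 57489 to 58492 CPM in old and 48402 to 51421 CPM in young hearts, with no overlap. Their part in the values of the sarcomere genes was not tested. In whole tissue, a change in the share of muscle cells and a change in RNA per cell cannot be told apart.

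The thin filament genes that passed the test were higher in old hearts, those of the M-band and thick filament were lower, and Z-disc genes moved in both directions. Of 13 thin filament genes tested, 6 rose and 0 fell. Of 8 thick filament genes, counting titin, 0 rose and 4 were called lower. One of these, Mybphl, passed the filter on low counts only through the young group, and without it 3 of 7 were lower. Of 4 M-band genes, 0 rose and 3 fell. Of 13 Z-disc genes tested, 5 rose and 2 fell, and neither of the 2 myosin assembly genes was called. Over all members tested, 11 of 40 rose and 9 were called lower (8 of 39 without Mybphl), and their median log2 fold change was 0.09, against -0.01 over all genes tested. With 20 of 40 called, Mybphl among them, the members' share stood above the 22% of all genes. For 23 of the 40, Mybphl among them, the old libraries lay apart from the young ones, against 39.9% of all genes tested. As the members were chosen with earlier results of these data known, these shares are descriptions only. Without young 1 the higher members numbered 7 and the higher thin filament genes 3. On log2(FPKM + 0.1) with no filter they were also 7 and 3.

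**Figure D1:**
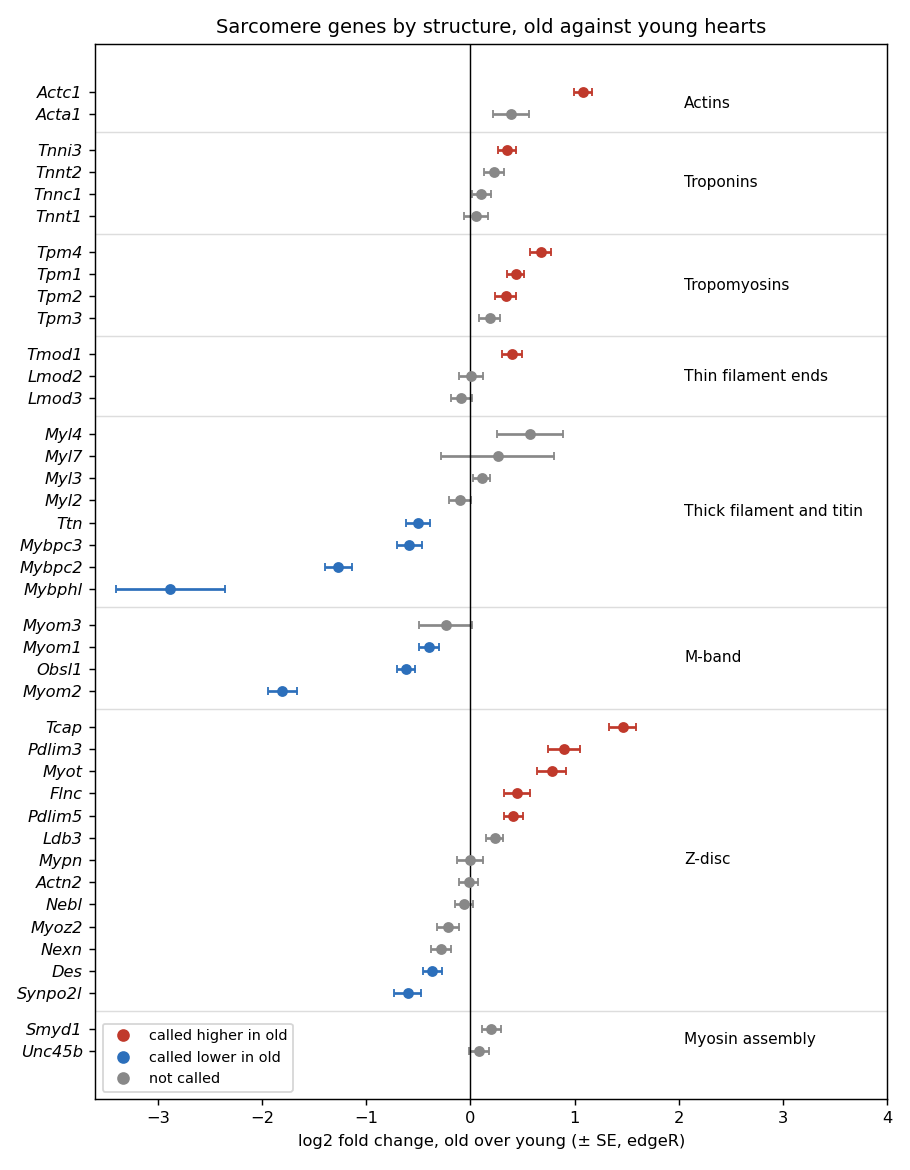
The log2 fold change of old over young (x axis, edgeR, bars ± SE) is plotted for each of the 40 tested sarcomere genes, grouped by structure, with red for genes called higher, blue for genes called lower and grey for genes not called. The M-band holds blue and grey points, the tropomyosins red and grey ones, and the Z-disc runs from Tcap at 1.46 to Synpo2l at -0.60.

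Taken by library, the medians of these structures separated the groups to different degrees. Each is the median over tested members of log2(CPM + 0.1), relative to the young mean. The M-band median was -0.49, -0.72 and -0.57 in old 1, old 2 and old 3, against 0.02, -0.10 and 0.11 in the young hearts. The tropomyosin median was 0.37, 0.35 and 0.49 in old hearts, against 0.05, -0.02 and -0.01 in young hearts. For the Z-disc it was 0.08, 0.20 and -0.13 in old hearts, within which the young values of -0.02, -0.03 and 0.03 lay. Old 3 had the lowest old value for the Z-disc, the thin filament ends and the assembly genes.

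**Figure D2:**
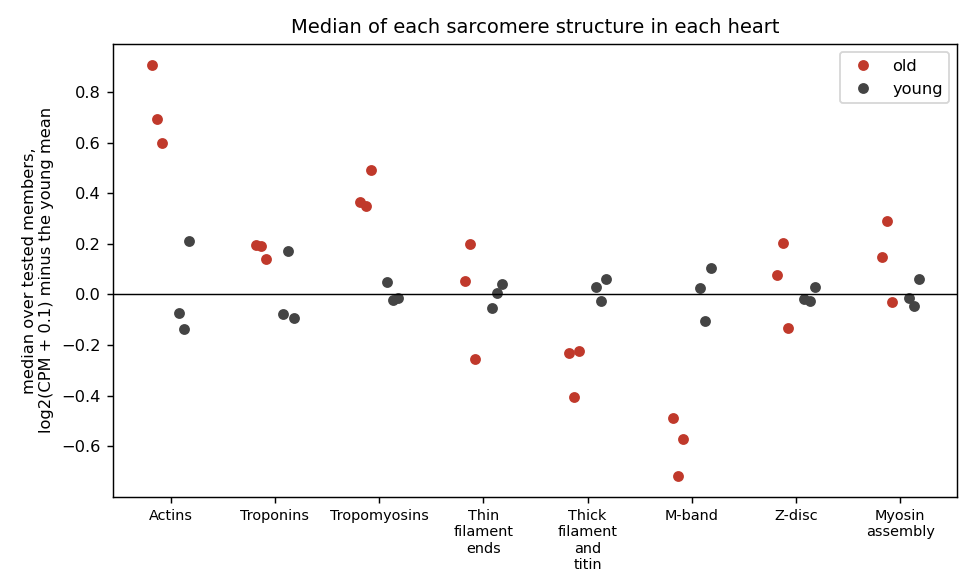
The median over tested members of log2(CPM + 0.1) minus the young mean (y axis) is shown for each structure (x axis) in each heart, red for old and dark grey for young. Old points lie clear of young points for actins, tropomyosins, the thick filament with titin and the M-band. For the Z-disc the young points lie within the range of the old points.

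Actc1, the cardiac alpha-actin that forms the thin filament backbone, was 2.11 times as high in old as in young hearts by edgeR. Its level was 11427, 12236 and 10914 FPKM in the old hearts, against 5816, 5456 and 6047 FPKM in the young hearts. FPKM is the authors' value, a count scaled by gene length and by library size. The lowest old heart lay well above the highest young heart, with a log2 difference of 1.08 ± 0.08 (SE, edgeR adjusted p = 8.75e-06). Actc1 ranked 2 among all genes by mean FPKM. Acta1, the skeletal alpha-actin that rodent hearts make before birth and again under load, had 242.9, 161.7 and 170.1 FPKM in old hearts, against 140.1, 127.7 and 195.7 FPKM in young hearts. Old 1 was the highest, the groups overlapped, and the gene was not called (log2 0.39 ± 0.17, edgeR adjusted p = 0.121). The highest young value was that of young 3, the library with skeletal muscle transcripts. Without young 3 the log2 fold change of Acta1 was 0.60 (edgeR adjusted p = 0.0447), and without old 1 it was 0.19 (edgeR adjusted p = 0.426); the part of skeletal muscle RNA in this was not tested. The coding sequences of the actins are alike, so reads shared between them could have been placed with either gene.

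The promoters of both actin genes are shown because Actc1 was called and Acta1 was not, and both are known targets of serum response factor. They are RefSeq windows of GRCm38.p6, from 250 bases before to 50 after the annotated start, 5′ to 3′. Capitals mark the CArG box (the serum response factor site), the letters TATAAA or, in the Mybpc3 and Ttn windows shown with the thick filament, the MEF2 site.
Actc1 (higher in old, chr2:114052826-114053125, minus strand): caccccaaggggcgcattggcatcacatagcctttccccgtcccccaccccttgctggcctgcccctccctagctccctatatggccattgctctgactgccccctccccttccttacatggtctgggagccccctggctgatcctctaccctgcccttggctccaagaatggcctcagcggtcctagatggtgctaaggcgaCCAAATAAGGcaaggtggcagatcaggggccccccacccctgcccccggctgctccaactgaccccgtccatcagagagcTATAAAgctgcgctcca
Acta1 (not called, chr8:123894726-123895025, minus strand): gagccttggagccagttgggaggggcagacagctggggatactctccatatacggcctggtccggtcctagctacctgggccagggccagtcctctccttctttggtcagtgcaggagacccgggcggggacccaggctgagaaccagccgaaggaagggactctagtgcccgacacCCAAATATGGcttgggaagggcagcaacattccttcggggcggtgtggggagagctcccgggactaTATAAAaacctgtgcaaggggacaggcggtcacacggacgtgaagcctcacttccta
Taking the first annotated base as position 0, the CArG box began at -47 in Actc1 and at -73 in Acta1, and TATAAA at 33 and at -7. Of the 42 members, 36 had a window in the RefSeq table, with 47 windows in all. The called members Tcap, Myot and Myom2 had none. Windows of one gene can overlap, so that the same CArG box was counted in both Ldb3 windows and the same CATTCC in both Flnc windows. Searched on both strands, the CArG box was present in 8 of 47 member windows (17.0%), against 1.63% of all 32851 windows. TATAAA was present in 14.9% of member windows and 13.6% of all windows. CATTCC, the M-CAT motif of TEAD factors, was present in 29.8% of member windows and 14.7% of all windows. The MEF2 site was present in 12.8% of member windows and 3.19% of all windows. No matches of different motifs overlapped in member windows. Among tested genes with a window, the CArG box was found in 1 of 9 higher genes (Actc1) and 1 of 8 lower genes (Myom1), and it was found in 5 of 18 genes not called. The MEF2 site was found in 0 of 9 higher, 3 of 8 lower (Mybpc3, Synpo2l and Ttn) and 2 of 18 genes not called. CATTCC was found in 4 of 9 higher, 2 of 8 lower and 7 of 18 genes not called, and TATAAA in 2 of 9, 0 of 8 and 5 of 18. These matches are letters in a window and do not show binding.

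Among the troponins, which make the thin filament sensitive to calcium, Tnni3 alone was called. Tnni3, the inhibitory subunit of the adult heart, had 7075, 7257 and 7320 FPKM in old hearts, against 5693, 6499 and 5780 FPKM in young hearts. Every old value exceeded every young value (log2 fold change 0.35 ± 0.09, edgeR adjusted p = 0.0141). This call was lost without old 1, young 1 or young 3, on log2(FPKM + 0.1) with no filter and after removal of the gene length trend. Tnnt2, the subunit that binds tropomyosin, had 4538, 4701 and 4560 FPKM in old hearts, against 3779, 4650 and 4002 FPKM in young hearts. On the FPKM scale young 2 lay within the old range. In CPM young 2, at 6539, lay just below the lowest old heart, at 6545. The log2 fold change of 0.23 ± 0.10 was not called (edgeR adjusted p = 0.11). Without young 2 Tnnt2 passed (edgeR adjusted p = 0.0138). Tnnc1, the calcium sensor, overlapped between groups at 4437 ± 229 FPKM in old and 4361 ± 373 FPKM in young hearts (SD, n = 3). The slow skeletal subunits were scarce. Tnnt1 stood at 13.31 ± 0.04 FPKM in old and 13.57 ± 1.46 FPKM in young hearts, and was not called (0.05 ± 0.12, edgeR adjusted p = 0.768). Tnni1, the troponin I of the fetal heart, was too low to be tested, with 5, 3 and 4 counts in old libraries and 11, 11 and 7 counts in young libraries. Its summed counts gave a ratio of old over young of 0.446, with an exact 95% counting interval of 0.207 to 0.902 that covers counting error only.

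Of the 4 tropomyosin genes 3 were called, all higher in old hearts. Tpm1, the main tropomyosin of heart muscle, had 2295, 2189 and 2376 FPKM in old hearts, against 1919, 1663 and 1791 FPKM in young hearts, without overlap. It rose (log2 0.43 ± 0.08, edgeR adjusted p = 0.00257), but on log2(FPKM + 0.1) with no filter it missed the threshold (limma adjusted p = 0.0551). Tpm4, a tropomyosin of the general cytoskeleton that muscle also makes, had 150.4, 122.5 and 124.5 FPKM in old hearts, against 94.29, 82.42 and 87.03 FPKM in young hearts. Its fold change was the highest of the 4 (log2 0.67 ± 0.10, edgeR adjusted p = 0.000604). Tropomyosins are also made by smooth muscle, whose 10 markers had 5 higher and 0 lower in old hearts. Their sums were 639.8 to 842.6 CPM in old and 555.7 to 598.0 CPM in young hearts. Fewer markers were higher in most other fits, with 2 under upper-quartile scaling, 2 without young 1 and 1 without young 3. The part of smooth muscle in the tropomyosin values was not tested. Tpm2, the beta-tropomyosin, was scarce, with 13.32, 14.29 and 17.18 FPKM in old hearts and 11.60, 12.42 and 13.44 FPKM in young hearts. On the FPKM scale its groups overlapped by a small margin, and its call (log2 fold change 0.34 ± 0.10, edgeR adjusted p = 0.0379) was lost without old 3, young 1, young 2 or young 3, with DESeq2 and under 5 other settings. Tpm3 had 16.77 ± 2.28 FPKM in old and 15.58 ± 0.72 FPKM in young hearts and was not called (0.18 ± 0.10, edgeR adjusted p = 0.206), passing without old 2. The gene counts do not separate splice forms, by which tropomyosin genes make muscle and cytoskeletal proteins.

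At the pointed end of the thin filament 1 of 3 genes was called, and the summed FPKM of the 3 was 376.4 ± 48.7 in old and 382.8 ± 12.4 in young hearts (exact permutation p = 0.9). Tmod1, the tropomodulin that caps the end, had 61.07, 72.37 and 62.44 FPKM in old hearts, against 49.73, 51.64 and 56.07 FPKM in young hearts. All old hearts were above all young hearts, and Tmod1 was called (log2 0.40 ± 0.10, edgeR adjusted p = 0.0136), a call lost without young 1. Lmod2, the leiomodin that lengthens cardiac thin filaments, had 280.7 ± 41.1 FPKM in old and 296.1 ± 9.11 FPKM in young hearts (log2 fold change 0.01 ± 0.11, edgeR adjusted p = 0.977). Old 3 was lowest for it, at 235.4 FPKM. Lmod3, the leiomodin known mainly from skeletal muscle, had 30.40 ± 3.76 FPKM in old and 34.23 ± 0.75 FPKM in young hearts and was not called (-0.09 ± 0.10, edgeR adjusted p = 0.552).

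Added together, thin filament genes took 4.71% ± 0.06 of the counts in old and 3.40% ± 0.02 in young libraries (SD, n = 3), without overlap. The exact 2-sided permutation p was 0.1, which is the smallest that 3 against 3 can give. The 2 actins took 1.71% ± 0.10 of counts in old and 0.868% ± 0.049 in young libraries, which is 0.846 of the 1.31 percentage points between the groups.

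**Figure D3:**
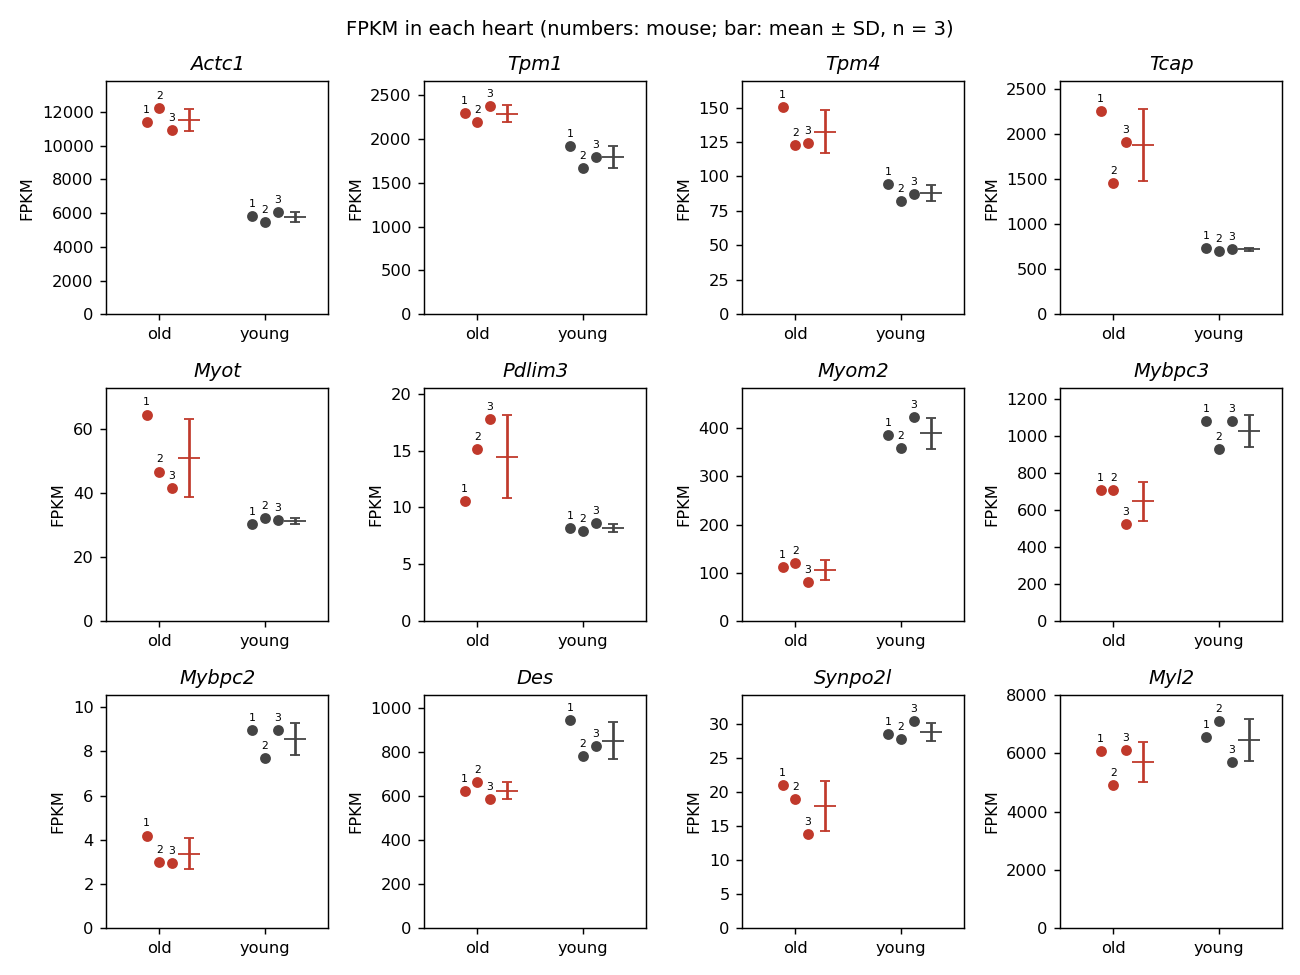
FPKM (y axis, from 0) is shown in each old (red) and young (dark grey) heart for 12 of the members, with the mouse number above each point and the mean ± SD (n = 3) beside the points. Old hearts lie above young hearts for Actc1, Tpm1, Tpm4, Tcap, Myot and Pdlim3, below them for Myom2, Mybpc3, Mybpc2, Des and Synpo2l, and among them for Myl2.

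In the thick filament the myosin light chains of the ventricle did not pass the test, and Mybpc3, Mybpc2 and Ttn were lower in old hearts. Myl2, the regulatory light chain, had 6094, 4914 and 6109 FPKM in old hearts, against 6549, 7129 and 5698 FPKM in young hearts. The groups overlapped (log2 -0.10 ± 0.11, edgeR adjusted p = 0.526). Myl3, the essential light chain, had 8388 ± 599 FPKM in old and 8229 ± 211 FPKM in young hearts (0.11 ± 0.08, edgeR adjusted p = 0.372). Their atrial versions were near the floor of detection. Myl7 had 16, 3 and 12 counts in old and 13, 4 and 11 counts in young libraries, and Myl4 had 37, 43 and 55 counts in old and 18, 46 and 33 counts in young libraries. Neither was called (edgeR adjusted p = 0.762 for Myl7 and 0.217 for Myl4).

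Mybpc3, the cardiac myosin binding protein C that tunes cross-bridge cycling, had 704.8, 708.9 and 523.1 FPKM in old hearts, against 1077, 926.6 and 1077 FPKM in young hearts. It fell without overlap (log2 -0.59 ± 0.12, edgeR adjusted p = 0.00572) and was lowest in old 3. Mybpc2, the fast skeletal version, was present at a low level, with 4.19, 2.98 and 2.93 FPKM in old hearts and 8.98, 7.72 and 8.97 FPKM in young hearts. No old heart reached a young one (log2 -1.27 ± 0.13, edgeR adjusted p = 7.1e-05). Mybphl, a related protein of atrial muscle and of the conduction system, had 1, 4 and 1 counts in old libraries and 19, 18 and 13 counts in young libraries. It passed the filter on low counts only through the young group. The ratio of summed counts, old over young, was 0.129 (exact 95% counting interval 0.0454 to 0.302). Passing the filter that way required a difference, so the call of Mybphl is no evidence of one. Where the gene is counted or plotted with the members, or set against Mybpc3 below, this is a description only. The 14 atrial markers, Mybphl among them, summed to 758.6 to 972.3 CPM in old and 1089 to 1197 CPM in young hearts. This sum held Nppa, at 49.22 to 112.7 CPM in old and 334.8 to 409.4 CPM in young hearts. It also held Clu, which overlapped at 544.5 to 695.4 CPM in old and 621.3 to 653.3 CPM in young hearts. Of the 11 markers tested, 3 were higher and 4 lower in old hearts. The part of the atrial markers in the value of Mybphl was not tested.

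Ttn, the giant spring protein, had 8.28, 9.92 and 9.91 FPKM in old hearts, against 13.58, 11.97 and 16.61 FPKM in young hearts. The groups did not overlap (log2 -0.50 ± 0.12, edgeR adjusted p = 0.0115), a call lost without old 1 or young 3. The deposited FPKM of Ttn rests on a length of 117466 bases and that of Myl4 on 16315 bases. Ttn was compared between groups only. Myl4 also entered a ratio with Myl3, in which its 0.09 to 0.29 FPKM was near the 0.1 FPKM added to each value. The windows of Mybpc3 and Ttn are printed because both fell and each holds a MEF2 site, at -90 in Mybpc3 and at -166 in Ttn.
Mybpc3 (lower in old, chr2:91117894-91118193, plus strand): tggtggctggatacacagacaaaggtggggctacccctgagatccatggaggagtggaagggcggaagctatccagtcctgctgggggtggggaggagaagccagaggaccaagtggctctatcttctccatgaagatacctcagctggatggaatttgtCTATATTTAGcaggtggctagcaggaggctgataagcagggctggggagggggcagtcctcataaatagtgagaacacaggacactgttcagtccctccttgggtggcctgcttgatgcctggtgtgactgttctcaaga
Ttn (lower in old, chr2:76982498-76982797, minus strand): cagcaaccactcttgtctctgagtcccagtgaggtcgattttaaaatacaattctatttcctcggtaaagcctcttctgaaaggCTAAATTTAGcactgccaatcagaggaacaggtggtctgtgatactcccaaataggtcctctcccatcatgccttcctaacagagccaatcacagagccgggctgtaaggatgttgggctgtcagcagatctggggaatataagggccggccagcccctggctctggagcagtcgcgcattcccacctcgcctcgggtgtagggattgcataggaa

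Of the 4 M-band genes 3 were lower in old hearts, most of all Myom2. Myom2, the M-protein of adult fast muscle and heart, had 112.5, 120.9 and 81.55 FPKM in old hearts, against 386.1, 358.8 and 422.2 FPKM in young hearts. Even the highest old heart was far below the lowest young one (log2 -1.81 ± 0.14, edgeR adjusted p = 8.36e-06). Myom1, the myomesin that cross-links thick filaments in all striated muscle, had 145.4, 151.6 and 127.5 FPKM in old hearts, against 203.4, 178.0 and 211.9 FPKM in young hearts. It fell by 0.40 on the log2 scale (SE 0.10, edgeR adjusted p = 0.0136), a call lost without young 1 or young 3. Obsl1, an obscurin-like linker of titin and myomesin, had 9.90, 9.39 and 10.35 FPKM in old hearts, against 16.45, 14.10 and 17.51 FPKM in young hearts (log2 -0.62 ± 0.09, edgeR adjusted p = 0.000617). Myom3, another myomesin, was at 0.392 ± 0.117 FPKM in old and 0.488 ± 0.081 FPKM in young hearts and was not called (-0.24 ± 0.25, edgeR adjusted p = 0.522). Summed over the 4 genes, the M-band stood at 256.8 ± 32.7 FPKM in old and 603.3 ± 50.4 FPKM in young hearts (exact permutation p = 0.1, the smallest possible).

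At the Z-disc, Tcap rose the most of the 40 sarcomere genes tested. Tcap, or telethonin, which clamps the ends of a pair of titin molecules, had 2258, 1461 and 1915 FPKM in old hearts, against 733.2, 702.6 and 726.0 FPKM in young hearts. The young hearts were close together and the old hearts spread widely above them (log2 1.46 ± 0.13, edgeR adjusted p = 2e-05). Pdlim3, an actinin-associated LIM protein, had 10.54, 15.11 and 17.78 FPKM in old hearts, against 8.15, 7.89 and 8.60 FPKM in young hearts (log2 0.90 ± 0.16, edgeR adjusted p = 0.00219). Pdlim5, of the same family, had 108.7, 106.3 and 91.75 FPKM in old hearts, against 81.60, 83.31 and 79.23 FPKM in young hearts (0.41 ± 0.09, edgeR adjusted p = 0.00902). Myot, or myotilin, which bundles actin with alpha-actinin, had 64.53, 46.73 and 41.53 FPKM in old hearts, against 30.30, 32.14 and 31.52 FPKM in young hearts (0.78 ± 0.14, edgeR adjusted p = 0.00238). Old 1 was the highest for Tcap, Myot and Pdlim5 and the lowest old heart for Pdlim3. Flnc, the muscle filamin, had 50.01, 51.65 and 38.89 FPKM in old hearts, against 38.74, 31.34 and 39.04 FPKM in young hearts. Its FPKM groups met at old 3, and its call (0.45 ± 0.12, edgeR adjusted p = 0.0221) was lost whichever library was left out except old 3.

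The 2 Z-disc genes that fell were Des and Synpo2l. Des, the intermediate filament desmin that links Z-discs of neighbouring myofibrils, had 621.2, 664.8 and 586.7 FPKM in old hearts, against 947.0, 782.0 and 827.6 FPKM in young hearts. It fell without overlap (log2 -0.37 ± 0.09, edgeR adjusted p = 0.016), a call lost without old 1 or young 1. Desmin is also made by smooth muscle, whose summed markers were higher in old hearts, as given with the tropomyosins, and their part in the value of Des was not tested. Synpo2l, an actin-binding Z-disc protein of the synaptopodin family, had 21.04, 18.93 and 13.88 FPKM in old hearts, against 28.47, 27.80 and 30.37 FPKM in young hearts (-0.60 ± 0.13, edgeR adjusted p = 0.00779).

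The central Z-disc cross-linker Actn2, or sarcomeric alpha-actinin, had 648.3 ± 42.7 FPKM in old and 694.1 ± 62.7 FPKM in young hearts, which overlapped (log2 -0.02 ± 0.09, edgeR adjusted p = 0.914). Nebl, the nebulette of cardiac thin filaments, overlapped as well (-0.06 ± 0.09, edgeR adjusted p = 0.655), and so did Mypn, or myopalladin (-0.01 ± 0.12, edgeR adjusted p = 0.977). Ldb3, or cypher, had 205.4 ± 11.3 FPKM in old and 185.0 ± 7.87 FPKM in young hearts and missed the threshold (0.23 ± 0.08, edgeR adjusted p = 0.0714), passing without old 3, with DESeq2 and after removal of the length trend. Nexn, an actin-binding protein of the Z-disc, had 62.76 ± 5.49 FPKM in old and 80.79 ± 5.52 FPKM in young hearts (-0.28 ± 0.10, edgeR adjusted p = 0.0573), and it passed without old 2 and under 6 of 12 other settings. Myoz2, or calsarcin-1, which binds calcineurin, had 1065 ± 89 FPKM in old and 1308 ± 142 FPKM in young hearts (-0.22 ± 0.11, edgeR adjusted p = 0.161), passing with library size alone and after removal of the length trend. Myoz1, its counterpart of fast skeletal muscle, was too low to be tested, with 2, 1 and 4 counts in old libraries and 2, 3 and 23 counts in young libraries. The 23 counts were those of young 3, the library with skeletal muscle transcripts.

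Neither myosin assembly gene passed the test with all 6 libraries. Smyd1, a muscle methyltransferase, had 171.7 ± 13.99 FPKM in old and 158.3 ± 9.1 FPKM in young hearts (0.20 ± 0.09, edgeR adjusted p = 0.141), passing without old 3. Unc45b, the myosin chaperone, had 61.83 ± 6.48 FPKM in old and 61.74 ± 2.37 FPKM in young hearts (0.08 ± 0.10, edgeR adjusted p = 0.562).

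Within each heart, pairs of related genes were compared as the log2 ratio of FPKM + 0.1, over 14 pairs. Pairs of a fetal or skeletal gene with its adult cardiac counterpart included those for actin, troponin T, troponin I and myosin binding protein C. In these the cardiac gene was the higher in every heart, and the ratio was lower in old hearts. Among other pairs, Tpm2 over Tpm1, Myoz1 over Myoz2 and Myom3 over Myom1 overlapped between groups. A ratio does not show which gene moved. The log2 fold change was 1.08 for Actc1 and 0.39 for Acta1, which was not called. Tnnt2 (0.23) and Tnnt1 (0.05) were not called, and Mybpc3 and Mybpc2 both fell. Tnni1 was at 0.093 to 0.367 FPKM, near the 0.1 FPKM added. Acta1 made up 1.64% ± 0.40 of the FPKM of Acta1 and Actc1 in old and 2.59% ± 0.47 in young hearts. The log2 ratio was -5.56, -6.24 and -6.00 in old hearts, against -5.37, -5.42 and -4.95 in young hearts, a difference of -0.69. Without young 3 the difference was -0.54. The share of Tnni1 over Tnni1 and Tnni3 was 0.00178% ± 0.00051 in old and 0.00507% ± 0.00124 in young hearts. That of Tnnt1 over Tnnt1 and Tnnt2 was 0.289% ± 0.005 in old and 0.327% ± 0.018 in young hearts.

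Myom2 over Myom1 was the pair in which the balance turned. Myom2 made up 42.3% ± 2.9 of the FPKM of both genes in old hearts and 66.3% ± 0.7 in young hearts. The log2 ratio was -0.37, -0.33 and -0.64 in old hearts, against 0.92, 1.01 and 0.99 in young hearts, so that Myom1 was the higher of the pair in every old heart and Myom2 in every young heart. The log2 ratio of Mybpc2 over Mybpc3 differed by -0.66 between old and young hearts, from -7.85 to -7.36 in old and -6.89 in each young heart. For Mybphl over Mybpc3 the difference was -1.76 but moved with the pseudocount, to -0.206 at 1 FPKM and -2.528 at 0.01 FPKM. Tpm4 over Tpm1 was higher in old hearts by 0.23, with Tpm4 at 5.48% ± 0.60 of the pair in old and 4.68% ± 0.04 in young hearts, and by 0.14 without old 1. For Tpm3 over Tpm1 the difference was -0.26, and -0.17 without old 2.

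In all, 8 of the 14 ratios, that of Mybphl over Mybpc3 among them, did not overlap between groups. The Mybphl ratio rests on 1, 4 and 1 counts in the old libraries and is a description only. Each of the 8 had an exact 2-sided permutation p of 0.1, the smallest possible, and 0.175 after Benjamini-Hochberg adjustment over the 14 pairs. The other 6 overlapped: Tpm2 over Tpm1, Myl7 over Myl2, Myl4 over Myl3, Myoz1 over Myoz2, Myom3 over Myom1 and Lmod3 over Lmod2. Atrial over ventricular light chain ratios were thus not distinguishable between groups, with Myl7 at 0.0251% ± 0.0152 of the FPKM of Myl7 and Myl2 in old and 0.0206% ± 0.0106 in young hearts.

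**Figure D4:**
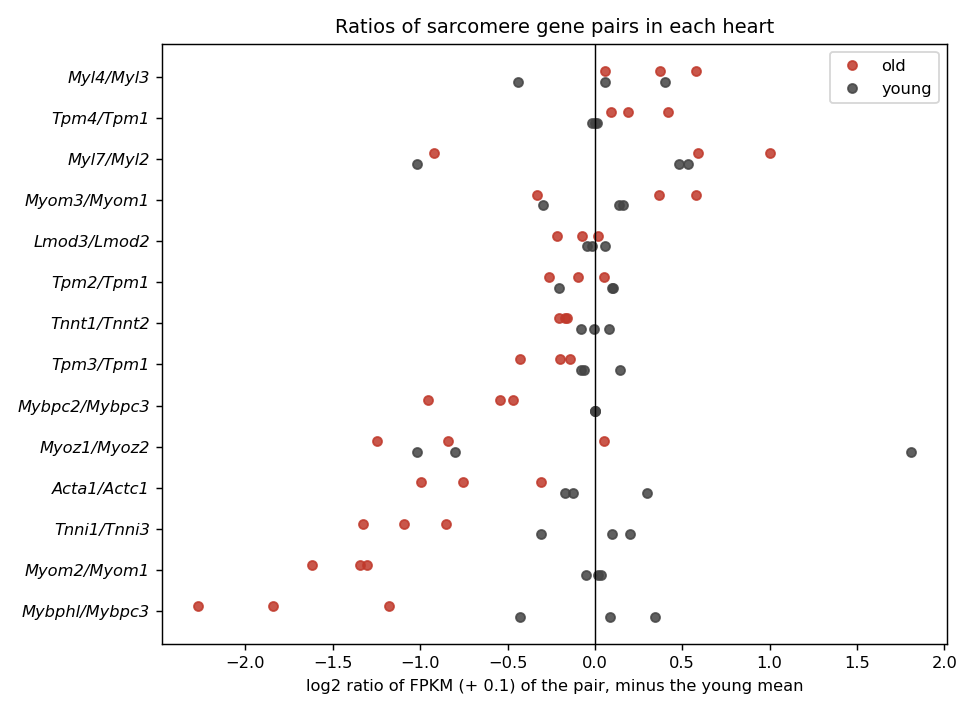
The log2 ratio of FPKM + 0.1 of each of the 14 gene pairs, minus the young mean (x axis), is plotted for each old (red) and young (dark grey) heart. Old points lie left of young points for Mybphl/Mybpc3, Myom2/Myom1, Tnni1/Tnni3, Acta1/Actc1, Mybpc2/Mybpc3, Tpm3/Tpm1 and Tnnt1/Tnnt2 and right of them for Tpm4/Tpm1.

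Other genes of the sarcomere, from a list of 44 found in the matrix, also included genes called each way. Among the 39 tested, 10 were called higher and 6 lower, or 41% called against 22% of all genes (median log2 fold change 0.03). This list and those that follow were also chosen with earlier results of these data known, so their shares are descriptions only. Fbxo32, a ubiquitin ligase subunit of muscle wasting, fell by 1.12 on the log2 scale (edgeR adjusted p = 3.01e-05). Kbtbd13, an adaptor of ubiquitin ligases in muscle, was lower at -1.41 ± 0.20 (edgeR adjusted p = 0.000588). Myl1 and Myl6, essential light chains of fast skeletal and of non-muscle myosin, were higher at 0.95 ± 0.10 and 0.60 ± 0.09. Pdlim1 and Pdlim7, relatives of Pdlim3 and Pdlim5, were higher at 0.75 ± 0.13 and 0.57 ± 0.09. These 6 genes were called whichever library was left out. The list had 7 higher genes without young 1.

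The costamere joins the Z-disc to the membrane and to the matrix. Of 20 costamere and dystrophin complex genes, 2 rose and 3 fell, or 25% called, close to the 22% of all genes. Itgb1bp2, or melusin, an integrin-binding chaperone of the heart, rose by 0.62 ± 0.08 (edgeR adjusted p = 0.000411), and Lims1, or PINCH, by 0.40 ± 0.09 (edgeR adjusted p = 0.0105). Sgcd, a sarcoglycan, was at -0.44 ± 0.11, Utrn, or utrophin, at -0.28 ± 0.08 and Parva, a parvin, at -0.24 ± 0.08. Without young 3 none of these 3 falls was called, and 1 of them was called without old 1 or young 1.

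Of 16 regulators of sarcomere genes, 3 rose and 3 fell, or 37.5% against 22% of all genes. Srf, the serum response factor that binds the CArG box, had 197.3, 254.8 and 209.5 CPM in old hearts, against 121.4, 138.1 and 138.4 CPM in young hearts, and rose by 0.73 ± 0.11 (edgeR adjusted p = 0.000636). Its cofactor Myocd, or myocardin, rose by 0.33 ± 0.08 (edgeR adjusted p = 0.0123) and the splicing and stability factor Rbm24 by 0.48 ± 0.11 (edgeR adjusted p = 0.00852), calls lost without young 1. Another Srf cofactor gene, Mrtfb, fell by 0.51 on the log2 scale (edgeR adjusted p = 0.000844). Tbx5 and Tead1 were at -0.42 ± 0.12 and -0.47 ± 0.14, and each was called after leaving out a library in 2 of 6 cases. Without young 1 the regulators counted 1 higher and 1 lower.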

How the data were processed

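Heart RNA was isolated with mirVana chemistry and made into TruSeq Stranded mRNA libraries, per the labels' protocols. The submitters' processing notes name GRCm39 and the programs HTSeq, StringTie, Cufflinks, HISAT2, Bowtie2, Trimmomatic and DESeq; what each did, its version and the strand setting were not given in the sources used here. The deposited gene counts are raw whole numbers. The deposited FPKM values were made by the authors from those counts: dividing count by FPKM gave 1 whole-number length for each of 16964 genes with counts. The 12 single-sample files and the joint tables held equal values.

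Testing used edgeR 4.0.16 (R 4.3.3) with filterByExpr, TMM scaling and the quasi-likelihood F test on all 6 libraries with no covariate. P-values were Benjamini-Hochberg adjusted over 12893 genes, and a gene was called below 0.05. Log2 fold changes are old over young, with standard errors derived from the fold change and F, and CPM are TMM scaled. Of the 42 members, 40 were tested. Alternatives used limma 3.58.1 and DESeq2 1.42.0. One alternative removed the gene length trend, fitted in each library as a loess curve (span 0.5) of log2 CPM deviations on log2 length. Counts were simulated for this comparison over 12788 genes, with 49 or 50 genes changed at each fold. The fit gave back 61.2% of 1.5-fold changes, 84% of 2-fold and 95.9% of 3-fold changes, and 9.63% of the calls fell on unchanged genes. Far fewer genes were changed than the 22% called in the data, so these shares need not carry over. Libraries of one group varied beyond counting error (chi-square per degree of freedom 7.9 to 16.7), and 1 count was worth 0.0774 to 0.0885 CPM. The labels number the mice and say no more on how the libraries are independent, so p-values measure the spread between these libraries.

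The members and gene lists were chosen with earlier results of these data known. All 42 members are named, and of each other list the up to 6 called genes of smallest p. Promoter sequences are those of RefSeq on GRCm38.p6, an older build than that of the counts, and the windows to show were chosen after values were seen.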

Additional observations from a re-analysis of the deposited data

How the results depend on the processing

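No called member changed sign in any alternative, and 13 of the 20 called members were called whichever library was left out. Both numbers count Mybphl, which passed the filter on low counts only through the young group. With a library left out, the higher members numbered 7 to 12 and the lower members 7 to 10 (11 and 9 with all 6), against 850 to 1597 higher and 682 to 1444 lower among all genes. By structure these fits called 1 to 2 higher actins, 0 to 2 troponins, 0 to 1 of the thin filament ends, 3 to 7 thin filament genes in all and 0 to 1 assembly genes, and 1 to 3 lower Z-disc genes, whose median was -0.0572 to 0.138.

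With library size alone 2122 genes and 4 Z-disc members were lower, and the medians were 0.305 for tropomyosins and -0.382 for the thick filament. On log2(FPKM + 1) with a mean FPKM of at least 1, 907 genes were higher, and the medians were 0.2945 for tropomyosins and -0.642 for the M-band. On log2(FPKM + 0.1) with no filter, 840 genes and 7 members were higher, 3 in the thin filament, 0 of them troponins and 1 a tropomyosin, whose median was 0.302. With the gene length trend removed, 0 troponins were called, at a median of 0.0112. The higher share of all calls was 51.7% under TMM, 40.2% under upper-quartile scaling, 32.7% under library size and 35.1% on FPKM + 1. With a pseudocount of 1 FPKM the log2 ratio difference was -0.479 for Tnni1 over Tnni3, -0.461 for Mybpc2 over Mybpc3 and -0.206 for Mybphl over Mybpc3; with 0.01 FPKM it was -1.453 for the first and -2.528 for the last. The cause was not tested.

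The equal numbers 1 to 3 were not treated as pairs: deviations from the group means correlated by 0.08, 0.07 and 0.02 between same-numbered libraries, and old 2 correlated best with young 3. With the replicate number as a block, 1417 genes were higher and 1317 lower, with 11 members higher and 10 lower. Scarce genes such as Tnni1, Myl7, Mybphl and Myoz1 are limited by depth.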

Other observations

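Longer genes tended to have lower fold changes across the whole table: Spearman's rho between the log2 fold change and the deposited gene length was -0.25 over the 12893 genes tested and -0.24 over the 40 tested sarcomere genes. These are descriptions across genes, which are not independent replicates, and the libraries are shared by all points. After removal of the length trend, Tnni3 and Tpm2 lost their call, Ldb3 and Myoz2 gained one, and the other members kept theirs or stayed uncalled.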
